A study of Mus musculus with 10 samples.

Results

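The sites described here are 502 regions of mouse ESCs at which the Suz12 ChIP-seq signal was weak, Pcl3 was bound nearby, and Suz12 was not called lower after Pcl3 knockdown. They were chosen from the 8876 Suz12 sites of scramble cells by 3 conditions: a Suz12 p-value above 1e-19, no entry for the same coordinates in the list of Suz12-depleted sites, and the center of a Pcl3 site within 2 kb of the center of the Suz12 site. The first condition left 3592 sites, the second left 2770 of these, and the third left 502. The p-value is that of the Skellam distribution for the difference in reads between the ChIP and its input, and a smaller value stands for a stronger site. Suz12 p-value, depletion and Pcl3 binding define the sites and are given below as description only.

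Suz12 is a core subunit of Polycomb repressive complex 2 (PRC2), which places trimethylation on lysine 27 of histone H3 (H3K27me3), a mark of repressed developmental genes. Pcl3, also named Phf19, is a Polycomb-like protein, an accessory subunit with a Tudor domain and PHD fingers. In mammalian ESCs PRC2 is known to gather at CpG islands, stretches of DNA rich in unmethylated CpG that cover many gene starts, and broad PRC2 domains mark the genes of developmental transcription factors.

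The study asked where Suz12 and H3K27me3 depend on Pcl3. Suz12-TAP (FlagM2 antibody) and H3K27me3 were each profiled in 1 library from scramble shRNA cells and 1 library from Pcl3 shRNA cells. These cells were derived from the BayGenomics gene trap line XG122 and carry 1 tagged Suz12 allele (Suz12TAP/+). Pcl3 was profiled with the same antibody in E14 ESCs that carried Pcl3-TAP together with Pcl3 shRNA 7 or 6, as 2 libraries with 1 list between them. The 10 libraries comprise 6 ChIP and 4 input DNA libraries. Suz12 and Pcl3 were thus measured in different ESC lines, Pcl3 as an introduced tagged protein. The lists hold 1 p-value per site and no reads, so sequencing depth is not known from them, and the intervals below are over sites of the same libraries and cover counting error only. Markers of the cell type could not be read from lists of binding sites. Among genes known for ESC identity, the starts of Pou5f1, Nanog and Zfp42 had no Suz12 center within 2 kb, while Esrrb had one at 467 bp and Lin28b at 374 bp.

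The 502 sites fell into groups by their surroundings. A site was called flanking when a stronger Suz12 site, one with a p-value of at most 1e-19, lay across an edge gap of at most 2 kb, and alone when no other Suz12 site of any p-value lay within 10 kb. By these limits 281 sites were flanking and 143 stood alone. The other 78 were intermediate, with another Suz12 site within 10 kb but no stronger site within 2 kb. The following mm9 sequences are examples from the 2 main groups, with a stronger neighbour. Most were chosen as extremes of CpG density, so they do not show how the groups differ as a whole. Each is the 300 bases around the center of a site, on the plus strand, with every CpG in capitals. The extremes of CpG density were taken among sites whose 300 bases held no UTR. The rank by Pcl3 p-value in the label of the Lin28b site covers only lone sites with a gene start within 2 kb.

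Hoxc4, CpG-poorest flanking site, chr15:102847976-102848275: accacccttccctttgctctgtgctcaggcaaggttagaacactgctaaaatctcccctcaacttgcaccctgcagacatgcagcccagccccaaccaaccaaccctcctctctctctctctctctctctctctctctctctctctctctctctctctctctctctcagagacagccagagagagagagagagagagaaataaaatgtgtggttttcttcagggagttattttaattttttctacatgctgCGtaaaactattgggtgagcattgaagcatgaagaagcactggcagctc

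Stronger neighbour of that site, nearest start Hoxc5, chr15:102845101-102845400: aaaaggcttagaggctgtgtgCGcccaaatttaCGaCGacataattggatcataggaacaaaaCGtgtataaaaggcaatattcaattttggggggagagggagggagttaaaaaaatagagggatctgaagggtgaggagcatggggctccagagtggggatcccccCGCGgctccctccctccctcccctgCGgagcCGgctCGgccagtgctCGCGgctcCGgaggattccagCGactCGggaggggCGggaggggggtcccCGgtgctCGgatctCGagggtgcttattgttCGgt

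Fbxl14, CpG-richest flanking site, chr6:119429126-119429425: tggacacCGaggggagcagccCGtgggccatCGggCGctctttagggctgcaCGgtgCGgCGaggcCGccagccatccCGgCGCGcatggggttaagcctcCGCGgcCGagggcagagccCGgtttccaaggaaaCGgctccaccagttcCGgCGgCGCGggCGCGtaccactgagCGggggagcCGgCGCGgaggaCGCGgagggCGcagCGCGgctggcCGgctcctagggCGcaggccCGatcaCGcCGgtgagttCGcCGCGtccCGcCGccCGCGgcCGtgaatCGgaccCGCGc

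Lin28b, lone site with the smallest Pcl3 p-value, chr10:45206426-45206725: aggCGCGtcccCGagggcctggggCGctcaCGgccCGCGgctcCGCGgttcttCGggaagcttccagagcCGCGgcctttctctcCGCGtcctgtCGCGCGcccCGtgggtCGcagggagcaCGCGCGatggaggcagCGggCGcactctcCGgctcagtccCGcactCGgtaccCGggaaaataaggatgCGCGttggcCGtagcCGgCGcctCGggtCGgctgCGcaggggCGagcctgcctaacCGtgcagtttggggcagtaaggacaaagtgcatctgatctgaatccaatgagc

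Gpbp1, CpG-richest lone site, chr13:112280576-112280875: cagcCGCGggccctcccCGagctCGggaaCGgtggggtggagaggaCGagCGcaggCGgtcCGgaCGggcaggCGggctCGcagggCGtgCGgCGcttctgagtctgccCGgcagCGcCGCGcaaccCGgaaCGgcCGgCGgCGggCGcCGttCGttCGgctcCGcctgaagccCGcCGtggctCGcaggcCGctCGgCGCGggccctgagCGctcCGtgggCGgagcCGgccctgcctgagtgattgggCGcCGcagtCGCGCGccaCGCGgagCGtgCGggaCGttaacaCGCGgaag

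Tet3, CpG-poorest lone site, chr6:83372226-83372525: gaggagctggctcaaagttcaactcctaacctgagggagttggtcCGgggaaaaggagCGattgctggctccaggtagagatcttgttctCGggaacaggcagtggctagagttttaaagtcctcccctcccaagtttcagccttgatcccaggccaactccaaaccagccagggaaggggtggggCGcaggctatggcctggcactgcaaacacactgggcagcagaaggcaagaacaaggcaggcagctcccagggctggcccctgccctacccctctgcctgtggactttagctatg

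The 300 bases of the Hoxc4 site held 1 CpG and a long run of CT and GA repeats, while the center of its stronger neighbour, across a gap of 1200 bp, held 19. The lone Lin28b site held 38 CpG and the lone Gpbp1 site 52. The Fbxl14 site, with 47 CpG, and the Tet3 site, with 4, lay at the other end of each group. The neighbour and the Lin28b site were added for comparison after their values had been seen.

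Most of the 502 sites lay close to a stronger Suz12 site. The share that flanked one was 56% (95% Wilson interval 51.6% to 60.3%), against 10.8% (9.63% to 12.2%) of the 2268 weak, non-depleted sites without Pcl3. The difference was 45.1 percentage points (Newcombe 95% interval 40.6 to 49.6). Among the 146 weak sites with Pcl3 that were depleted the share was 28.1%, which was 27.9 points lower (19.0 to 35.8). Lone sites made up 28.5% of the sites (24.7% to 32.6%), against 63.9% without Pcl3 and 48.6% of the depleted sites with Pcl3. The differences are description only, because Suz12 strength, Pcl3 and depletion chose the sets and Suz12 strength also defines flanking. The depleted sites with Pcl3 were also stronger, with a median −log10 p of 15.1 against 10.2 for the 502. All these shares depend on the distances used. When centers rather than edges were compared, 33.9% were flanking.

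**Figure D1:**
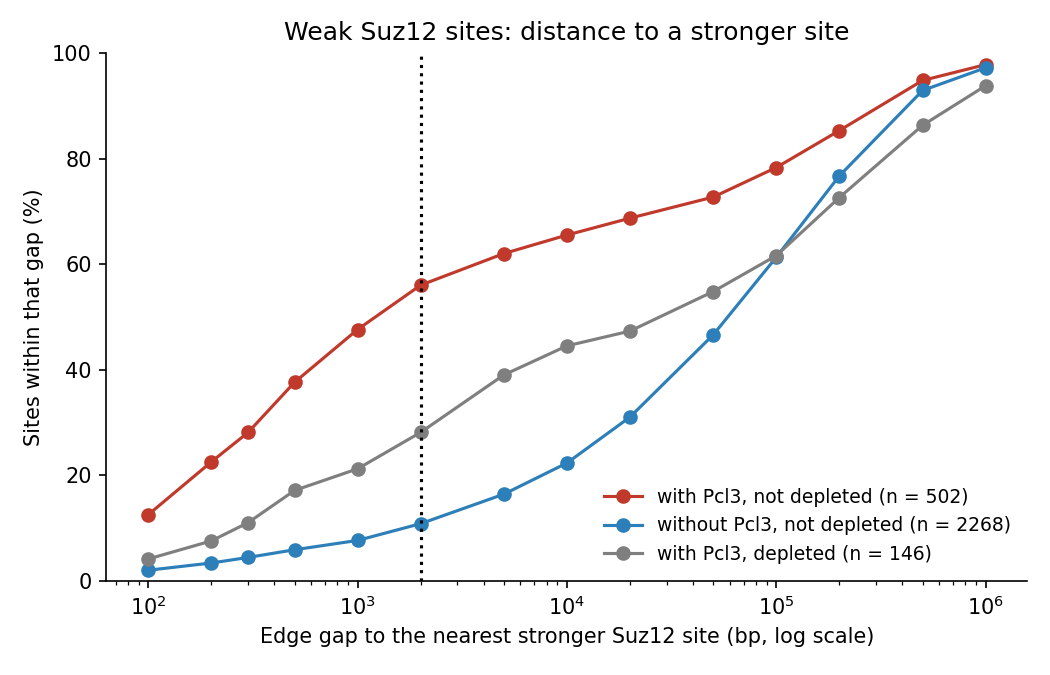
Cumulative share of weak Suz12 sites (y axis, percent) with a stronger Suz12 site within a given edge gap (x axis, bp, log scale), for the 502 sites with Pcl3 that were not depleted, the 2268 without Pcl3 that were not depleted and the 146 with Pcl3 that were depleted. At the dotted line of 2 kb the curves stand at 56%, 10.8% and 28.1%, and by 1000000 bp all 3 lie above 90%.

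The gap was usually short. Its median among the 281 flanking sites was 300 bp (95% interval of the median 250 to 350), and 141 of them lay within 300 bp. These 281 sites adjoined 260 distinct stronger sites, of which 18 had 2 or 3 such neighbours and 8 had one on each side. The stronger sites were broad, with a median width of 2100 bp against 600 bp for the flanking sites.

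Being next to a stronger site also bears on the Pcl3 condition, because a Pcl3 site that belongs to the neighbour can lie within 2 kb. Among weak, non-depleted sites, 53.3% of those flanking a stronger site had a Pcl3 center within 2 kb (281 of 527), against 8.98% of lone sites (143 of 1593). For comparison, 18.0% of all weak Suz12 sites and 44.9% of all Suz12 sites had one. In lone sites the Pcl3 center lay a median of 100 bp from the Suz12 center (75 to 125), and 115 of 143 lay within 300 bp. In flanking sites the median was 1050 bp (950 to 1200) and 79 of 281 lay within 300 bp. The nearest Pcl3 site shared bases with the flanking site only in 92 cases, with the stronger neighbour only in 110, with both in 46 and with neither in 33. For 153 of the 281, the Pcl3 center was closer to another Suz12 site. Pcl3 sites wider than 5 kb were near 19 sites, all flanking. When a site was kept only if it was itself the Suz12 site nearest to its Pcl3 center, an alternative chosen after seeing the data, 331 sites remained, of which 38.7% were flanking and 43.2% alone.

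**Figure D2:**
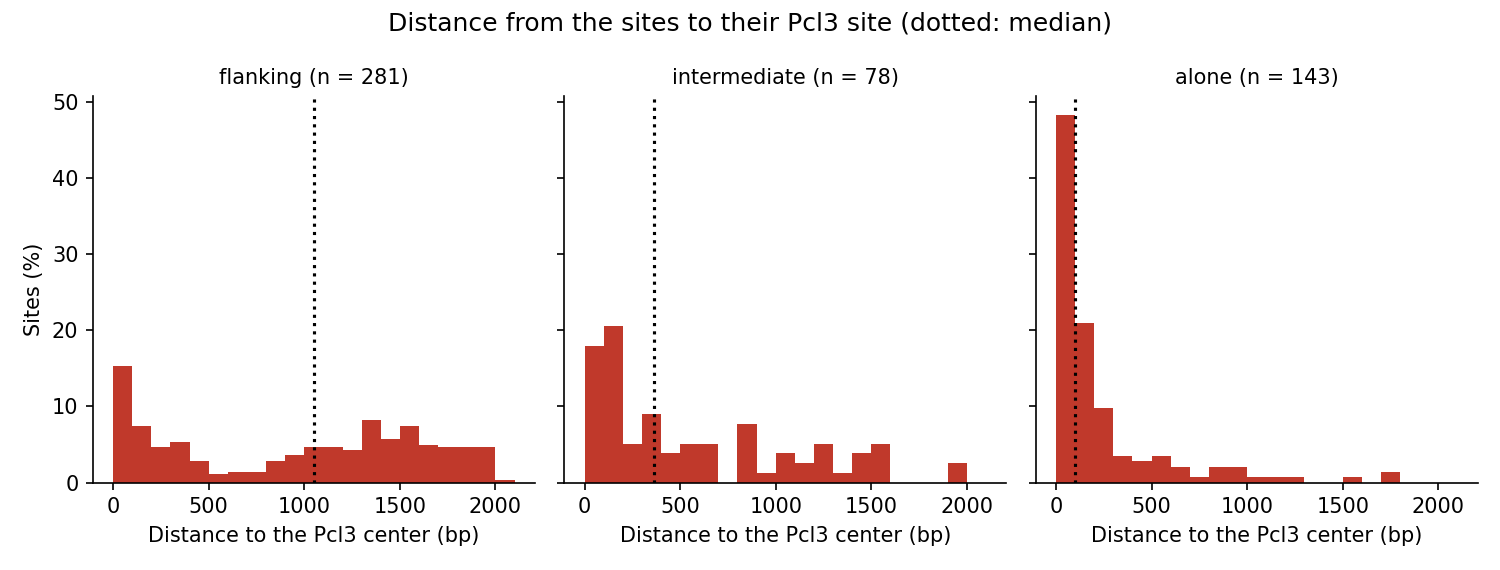
Distance from the center of each of the 502 sites to its Pcl3 center (x axis, bp, bins of 100 bp) as percent of the flanking, intermediate and lone sites (y axis). Lone sites pile up at 0 with a median of 100 bp, whereas flanking sites spread over the whole 2 kb with a median of 1050 bp (dotted lines).

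Depletion was part of the rule for the 502 sites, so it can be described only for the sites around them. Of all 8876 Suz12 sites, 64.5% were in the depleted list. This share was 92.7% among the stronger sites and 22.9% among the weak ones. The 502 sites were by definition not in the list. Of the 260 distinct stronger neighbours of the flanking sites, 249 were, or 95.8% (92.6% to 97.6%), against the 92.7% of all stronger sites. The 139 distinct stronger sites nearest to the lone sites were depleted in 96.4%. Of the 229 distinct stronger neighbours of flanking sites without Pcl3, 90.4% were depleted, 5.38 points fewer (0.878 to 10.3).

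Within the weak range, stronger Suz12 sites were more often in the depleted list, with and without Pcl3. With −log10 p between 6 and 10, 3.97% of weak sites with Pcl3 and 5.16% of those without were depleted. Between 10 and 13 the shares were 15.5% and 24.1%, between 13 and 16 they were 40.8% and 39.3%, and between 16 and 19 they were 54.5% and 55.3%. Of the 502 sites, 242 were in the lowest bin and 45 in the highest, against 1531 and 517 of all 3592 weak sites. Their median −log10 p was 10.2, against 9.72 in weak, non-depleted sites without Pcl3. From the lowest to the highest bin, lone sites made up 20.2%, 30.5%, 44.0% and 37.8% of the sites described here. The depleted list repeats the p-value of binding, so the size of a loss cannot be read from it.

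At the limit of 1e-19, the 3 sites just inside were nearest to Hmx2 (1.0e-19, start 4526 bp away), Mbnl1 (1.03e-19) and Cyp26c1 (1.58e-19). The 3 otherwise like sites just outside were nearest to Lbx1 (5.34e-20), Psd (4.16e-20) and Polg (4.16e-20). In all, 99 non-depleted sites with Pcl3 had p-values at or below the limit.

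CpG density separated the groups, and the sequence was not used to choose the sites. Over the 500 bp around the center, the 502 sites had a median of 3.40 CpG per 100 bp (3.00 to 3.8), below the 6.00 (5.80 to 6.20) of weak, non-depleted sites without Pcl3 and the 5.70 (4.8 to 6.60) of depleted sites with Pcl3. All Suz12 sites together had a median of 7.00. The median differed between the places. Flanking sites had a median of 2.40 (2.20 to 2.60), intermediate sites 4.00 (3.20 to 4.8) and lone sites 8.40 (7.80 to 8.80).

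Compared place by place, the order with the sites lacking Pcl3 was not the same for lone sites as for the others. Among flanking sites, those with Pcl3 were poorer in CpG than those without, at 2.40 against 3.30 (2.80 to 3.8). Intermediate sites with Pcl3 were also poorer, at 4.00 against 5.40 (5.20 to 5.60). Among lone sites, those with Pcl3 were richer, at 8.40 against 6.80 (6.40 to 7.00), and the intervals did not overlap in any of the 3 places. Lone sites with Pcl3 were also somewhat stronger in Suz12, with a median −log10 p of 11.6 against 9.77. Within the bins of Suz12 strength their CpG density was 7.00 against 6.20 in the lowest, then 7.80 against 7.00, 10.0 against 7.20 and 7.80 against 7.50. Depleted lone sites with Pcl3 had the same median of 8.40 (7.40 to 9.60) as the non-depleted ones, and depleted flanking sites with Pcl3 had 3.40 (2.80 to 3.8).

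**Figure D3:**
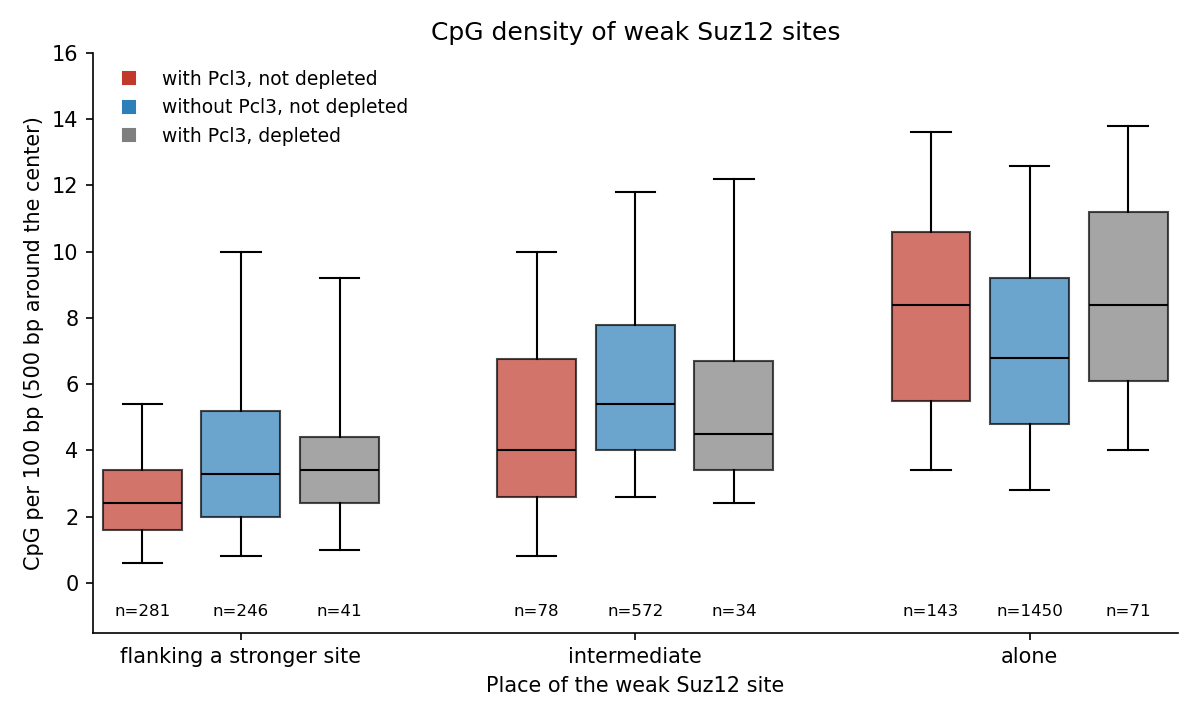
CpG per 100 bp in the 500 bp around the center (y axis) of weak Suz12 sites, by place and by set. Boxes span the quartiles with the median as a line, and whiskers reach from the 5th to the 95th percentile of sites. The sites with Pcl3 that were not depleted have the lowest box among flanking sites (median 2.40) and a box above that of sites without Pcl3 among lone sites (8.40 against 6.80).

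CpG islands followed the same split. A 200 bp window of at least 50% GC in which CpG reached over 0.6 of the number its base composition predicts was found within the 1 kb around the center of 97.2% of lone sites (93.0% to 98.9%) and 45.6% of flanking sites (39.8% to 51.4%), a difference of 51.7 points (44.5 to 57.6). All Suz12 sites met this in 93.2%, and flanking sites without Pcl3 in 58.5%. Of the 48 lone sites with no gene start within 2 kb, 45 met it as well. The 6 letters GCGCGC, which read the same on both strands, occurred in the 500 bp of 37.8% of lone sites (30.2% to 45.9%) and 8.54% of flanking sites (5.81% to 12.4%), against 37.5% of all Suz12 sites. This motif holds CpG and overlaps the island measure.

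Around the flanking sites the CpG density was lopsided. On the side away from the stronger site the mean was 1.28 CpG per 100 bp at 650 bp (SEM over sites 0.0949, n = 281). It had a small peak of 3.13 (0.164) at the center, dipped to 2.03 (0.168) at 350 bp toward the stronger site and rose to 5.81 (0.294) at 1550 bp. At 248 of the 281 sites the density was lower than at the neighbour's center, where the median over the 260 distinct neighbours was 6.60. Flanking sites without Pcl3 had a higher peak of 4.65 (0.238) at the same position and 4.22 (0.252) at 1550 bp. Lone sites formed 1 sharp peak of 9.62 (0.366, n = 143) that fell to 0.951 (0.0820) at the far edge, against a peak of 8.11 (0.107) for the 1450 lone sites without Pcl3.

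**Figure D4:**
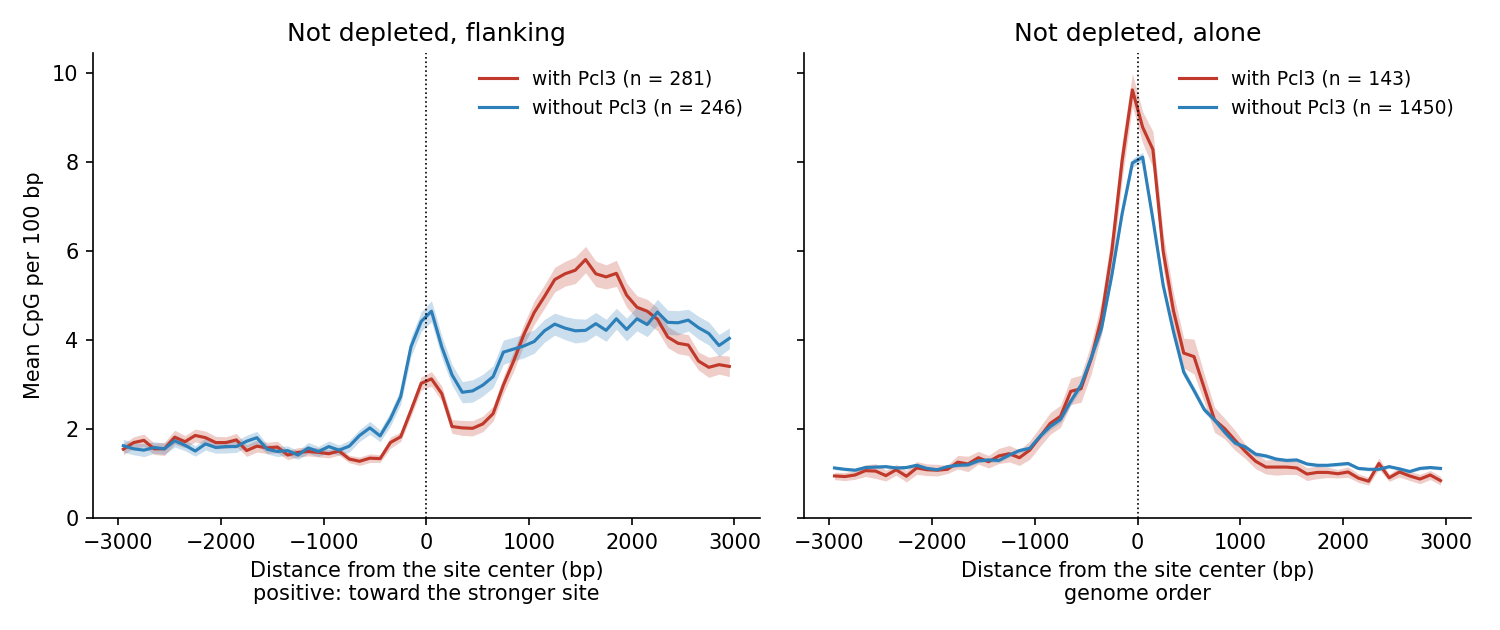
Mean CpG per 100 bp in 100 bp steps (y axis) against distance from the site center (x axis, bp), for non-depleted weak sites with and without Pcl3. Shading is the SEM over sites. Left, flanking sites turned so that the stronger site lies to the right, with a shoulder of 3.13 at the center and 5.81 at 1550 bp for sites with Pcl3. Right, lone sites with a single peak.

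A protein-coding gene start lay within 2 kb of 252 of the 502 sites, or 50.2% (45.8% to 54.6%), next to 237 different genes. The share was 11.4 points lower (6.60 to 16.2) than in sites without Pcl3, at 61.6%, and 66.6% of all Suz12 sites had one. The difference was not even across places. Among intermediate sites the share was 33.3% against 53.3%, a difference of −20.0 points (−30.3 to −8.23). The interval of the difference included 0 for flanking sites, at 46.6% against 49.6% (difference −2.97 points, −11.4 to 5.54), and for lone sites, at 66.4% against 66.9% (−0.463 points, −8.88 to 7.17). The last 2 intervals leave room for differences of several points either way. Lone sites were more often close to a start, 82 of 143 within 500 bp, against 27 of 281 flanking sites. The median distance to a start was 331 bp in lone sites both with and without Pcl3. A start lay inside 49.0% of the lone sites and 8.19% of the flanking sites, whereas 60.8% of the 260 distinct stronger neighbours covered one. Flanking sites near a gene start were spread evenly to either side, 66 upstream and 65 downstream. The center of the 502 sites was intergenic in 43.8%, in an intron in 31.1%, in a coding exon in 14.7% and in a UTR in 10.2%.

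Sites beside listed developmental transcription factor genes were nearly all flanking. Of the 24 sites within 2 kb of a start from the lists of Hox, T-box, Pax, Gata, Sox, forkhead, other homeobox and developmental bHLH factors, 22 were flanking, 2 were intermediate and none stood alone, and the nearest stronger site was depleted for all 24. The 24 sites lay near 17 genes, with 4 sites at Pax6 and 6 at 4 Hox genes, so they are not all separate cases. Over all 502 sites, 56% were flanking and the nearest stronger site was depleted for 95.6%, so the depletion does not set the 24 apart. Of the 252 sites within 2 kb of any protein-coding gene start, 66 upstream and 65 downstream of it were flanking. The CpG density of the 24 had a median of 2.00 and ranged from 0.200 to 9.60. Genes near these sites included Hoxb1, Hoxc4, Hoxd3, Hoxd8, Tbx5, Tbx15, Pax6, Alx1, En2, Gsx2, Lhx2, Lhx3, Tlx2, Vax1, Bhlha9 and Hey1. The lists hold 356 Suz12 sites in all, so that the 24 were 6.74% of them, near the 5.66% that the 502 sites make up of all Suz12 sites. The 8 Suz12 sites at Gata genes, 16 at Sox genes and 32 at forkhead genes included 0 of the 502, counts too small to tell from that share.

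The Pcl3 p-value was written as 0 at 17 flanking sites, which cannot be ranked among themselves. The 5 of them with a gene start within 2 kb were beside genes for transcription factors of the embryo, and the other 12 lay farther from a start. Near Hoxd8, a patterning gene of the body axis, the site (chr2:74544451-74545200) had a Suz12 p of 8.81e-19 and lay in a coding exon, 50 bp from a site of 3100 bp with p 9.16e-263. Near Hoxd3, of the same cluster, the site (chr2:74547801-74548350) had p 3.37e-09 and 0.800 CpG per 100 bp against 6.20 in its neighbour. At Pax6, a regulator of eye and brain development, an intronic site of 450 bp with p 4.17e-08 (chr2:105511201-105511650) lay 100 bp from a neighbour of 5550 bp whose p was written as 0. Near Gsx2, a forebrain homeobox gene, the site (chr5:75470101-75470500) had p 4.25e-08 and 1.00 CpG per 100 bp, and its neighbour had 9.0. Near Tcfap2b, which encodes an AP-2 factor, the site (chr1:19202851-19203600) had p 3.30e-11 and lay 100 bp from its neighbour. At all 5 a single Pcl3 site covered both the weak site and its nearest stronger neighbour, and all 5 neighbours were depleted.

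**Figure D5:**
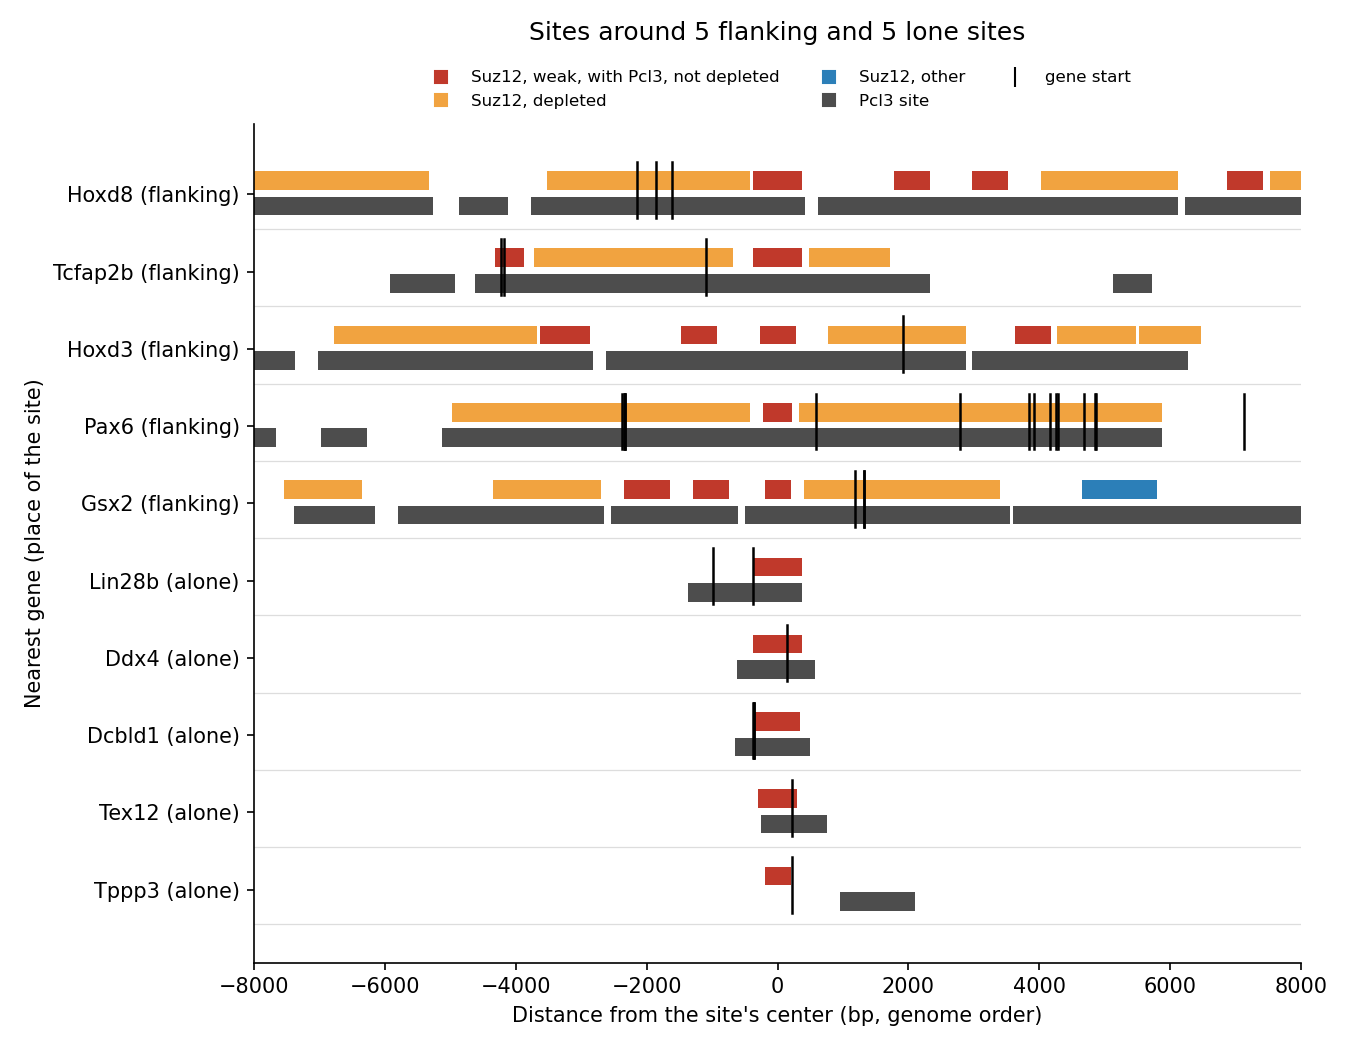
Suz12 sites (upper bars, colored by class), Pcl3 sites (lower dark bars) and starts of the named gene (vertical lines) around 5 flanking and 5 lone sites, by distance from the center of the site (x axis, bp). Beside flanking sites, depleted Suz12 sites lie at gaps of 50 to 500 bp, and a Pcl3 site spans both, whereas the lone sites are single bars near a gene start with nothing else of Suz12 within the 8 kb drawn on each side.

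Further sites near listed transcription factor genes had larger Pcl3 p-values. A site 1242 bp upstream of Hoxc4 (p 1.08e-08, Pcl3 p 4.63e-97) was the poorest in CpG of all 502, at 0.200 per 100 bp. A pair of sites lay upstream of Tbx5, a limb and heart factor, at 1247 bp (p 4.94e-10) and 447 bp (p 3.33e-15), with 1.60 and 0.400 CpG per 100 bp. Hey1, a target of Notch signaling, also had a pair, with p 1.54e-09 and 1.69e-08, of which the first held 1.80 and the second 9.60 CpG per 100 bp. The site of Bhlha9, a limb bHLH factor, had p 2.08e-10 and 2.80 CpG per 100 bp.

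Sites within 2 kb of the remaining listed pathways numbered 34 of 639 Suz12 sites (5.32%, against the same 5.66%), of which 25 were flanking and 7 alone. Wnt pathway genes had 4, all flanking. They were Dkk2 (p 3.33e-15) and Sfrp1 (p 1.53e-13), both secreted antagonists, Rspo1 (p 1.43e-14), a secreted enhancer of Wnt signaling, and Wnt9b, a ligand. Fgf receptor genes had 2, among them a site 11 bp from a start of Fgfr2 (p 8.58e-17, 3.8 CpG per 100 bp). Shh, the hedgehog ligand, had a flanking site (p 5.57e-09) with 0.60 CpG per 100 bp. Cyp26c1, which encodes a retinoic acid-degrading enzyme, had a flanking site with 2.20, whereas Rarg, a retinoic acid receptor gene, had a lone site (p 1.28e-10) with 8.40. In the Notch list the site of Mamld1 was flanking (p 1.50e-11) and that of the receptor gene Notch2 stood alone (p 1.80e-11, 13.8 CpG per 100 bp). Pcdh15, a cadherin gene of the inner ear, and Cacna2d3, a calcium channel subunit gene, had flanking sites with p 7.73e-10 and 1.04e-10. Among them, 0 of the 8 Suz12 sites at cell cycle inhibitors, 8 at PRC2 and Polycomb genes and 2 at histone genes belonged to the 502, and ribosomal protein genes had no Suz12 site. The genes the study tested by ChIP held 17 Suz12 sites and 0 of the 502. At a share of 5.66% these totals are too small for a count of 0 to stand apart.

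Of the 143 lone sites, 7 lay near a gene of these lists. The 5 lone sites with a gene start within 2 kb and the smallest Pcl3 p-values were at Lin28b, Ddx4, Dcbld1, Tex12 and Tppp3. Lin28b, an RNA-binding protein gene whose product blocks maturation of let-7 microRNAs, had Suz12 p 1.34e-13 and Pcl3 p 7.86e-43 (chr10:45206201-45206950), 374 bp upstream of the start, with 11.8 CpG per 100 bp and no stronger site within 149950 bp. The site at Ddx4 (chr13:113442001-113442750), which encodes a germ cell RNA helicase, had p 3.33e-15, Pcl3 p 1.00e-27 and 11.2 CpG per 100 bp. The site at Dcbld1 (chr10:51953451-51954150) had p 5.65e-14 and Pcl3 p 4.2e-25, with 9.20 CpG per 100 bp. That at Tex12 (chr9:50368851-50369450), a gene of the synaptonemal complex of meiosis, had p 5.19e-11, Pcl3 p 2.48e-22 and 6.20. Tppp3, a tubulin-binding protein gene, had a narrow site of 400 bp (chr8:107994901-107995300, p 6.55e-08) whose Pcl3 center was 1525 bp away.

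The 502 sites ranged from 0.200 to 16.8 CpG per 100 bp. Mbnl1, a splicing regulator gene, had the highest density (p 1.03e-19, Pcl3 p 2.34e-15). Eif5, a translation initiation factor gene, had 15.4 (p 1.21e-15), with its Pcl3 center at a distance of 0 bp. Both were lone sites in a UTR. Next came 5 sites with 14.2, of which 4 stood alone, among them the Gpbp1 site shown above. The fifth, the flanking Fbxl14 site, had a neighbour, with p 2.57e-22, that was not depleted. At the other end, after Hoxc4, came 7 sites with 0.400 CpG per 100 bp, of which 5 were flanking. They included the second Tbx5 site, the En2 site and a site 7588 bp from Neurod2, a neuronal bHLH gene.

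Decreased H3K27me3 was found near few of the sites. An H3K27me3-depleted center lay within 2 kb of 28 of the 502, or 5.58% (3.89% to 7.94%), against 7.37% of all Suz12 sites and 3.12% of the weak ones. The share was 3.55 points higher (1.73 to 5.97) than in weak, non-depleted sites without Pcl3, at 2.03%, and 1.27 points lower than in depleted sites with Pcl3, with an interval from −6.83 to 2.62. By place, the difference from sites without Pcl3 was −0.301 points among flanking sites (−5.15 to 4.37), 3.96 points among intermediate sites (6.41% against 2.45%, −0.0221 to 11.8) and −0.128 points among lone sites (−0.970 to 3.05). Flanking sites held 22 of the 28, intermediate sites 5 and lone sites 1, which was at Tex12 with its H3K27me3 center 225 bp away. When the H3K27me3 site had to share a base with the Suz12 site the share was 2.19%, and 11 of the 28 lay on chromosome 11, without which it was 3.78%.

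The 5 sites with the smallest H3K27me3 p-values were all flanking, and the H3K27me3 center was 1550 to 1775 bp away in each case. The first (p of H3K27me3 2.54e-75) was 2133 bp from a start of Gm10800. Its p-value lay far below the others, while the site and its neighbour held only 2.20 and 1.80 CpG per 100 bp. The lists hold no reads, so the quality of the signal at this locus could not be examined. The others, all on chromosome 11, were nearest to starts of Shroom1 (5.98e-18), Bhlha9 (5.59e-16), Ush1g (8.93e-15), a gene of inner ear hair cells, and Wnt9a (4.40e-14), a Wnt ligand gene. The Ush1g start was 4730 bp from its site, whose center lay in an intron of Otop2, and the Wnt9a start was 2343 bp away. Since the stronger neighbours of all 5 sites were depleted of Suz12 and lay 50 to 400 bp away, lower H3K27me3 at the weak site and at its neighbour cannot be told apart from these lists.

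The sites were found on every chromosome, from 9 on chromosome 16 to 52 on chromosome 11, with 16 on X and 2 on Y. Those on X were 9.58% of its 167 Suz12 sites, against 5.66% over all chromosomes. The 2 on Y were the only Suz12 sites there, both weak. Chromosome 11 held 10.4% of the sites and 10.4% of all Suz12 sites. It held 4.2% of the lone sites against 10.4% of lone sites without Pcl3, a difference of −6.22 points (−9.03 to −1.34).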

How the data were processed

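Per the labels and the methods, the authors aligned short single-end reads to mm9 with bowtie, kept uniquely placed reads, equalized the background of paired libraries, and called sites from 400 bp windows by a Skellam p-value with a stated limit of 1e-07, although the largest p-value in the Suz12 list is 8.84e-07. They deposited 4 lists (8876 Suz12, 5722 Suz12-depleted, 5242 Pcl3 and 678 H3K27me3-depleted sites) with 1 p-value per site. All 5722 depleted sites repeat the p-value of the Suz12 list. No column of another sample was used.

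Overlaps, edge gaps, CpG counts (mm9 sequence), gene starts (GENCODE vM1) and intervals were computed from these lists, with coordinates counted from 1. Gene starts are those of protein-coding transcripts. Shares have 95% Wilson intervals, differences Newcombe intervals, and medians binomial intervals from order statistics. With 1 library per condition no test between conditions was made, and sites are not replicates. The overlap and interval functions were tested on simulated data. The sites and the gene lists were chosen with earlier results of these data known.

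Named sites were those near listed genes (up to 20 by Pcl3 p-value), the 5 lone and 5 flanking sites with the smallest Pcl3 p-value and a gene start within 2 kb, the 5 with the smallest H3K27me3 p-value, 3 on each side of the p limit and the 3 highest and 3 lowest in CpG density. Other sites near listed genes, the printed Gpbp1 and Tet3 sites, E2f6, the germ cell genes and the loci with 3 weak sites were named after their values were seen. Alternatives were other distances, p limits, depletion rules, windows and chromosomes. Sequence was read with samtools 1.23.1 and pysam 0.24.0, intervals came from scipy 1.17.1, figures were drawn with matplotlib 3.10.9, and tables were handled with pandas 2.3.3 and numpy 2.4.6 under Python 3.11.15. Sites near some listed genes are not reported here.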

Additional observations from a re-analysis of the deposited data

How the results depend on the processing

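Of 88 alternative values, 50 stayed within the interval of the value reported, or within 1.5 times the count, and 38 moved. With Pcl3 centers within 500 bp, 269 sites remained, of which 37.5% were flanking and 46.1% alone, with 4.8 CpG per 100 bp and decreased H3K27me3 near 2.97%. Within 1 kb the values were 328, 39.9%, 41.8%, 4.30 and 3.05%. Within 5 kb, 21.4% stood alone and 45.5% had a gene start. With a shared base, 34.6% stood alone and 3.85% had decreased H3K27me3. When no depleted center could lie within 2 kb, the values were 326 sites, 35.0% flanking, 43.9% alone, 4.40 CpG and 2.45%. Taking only sites nearest to their Pcl3 center, chosen after seeing the data, gave 331, 38.7%, 43.2%, 4.2 and 3.02%. Lone sites outnumbered flanking sites under the limits of 500 bp and 1 kb, the stricter depletion rule and the nearest-site rule. With p above 1e-12, 60.8% were flanking and 23.0% alone, with 2.80 CpG.

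Gap limits of 1 kb and 5 kb gave 47.6% and 62.0% flanking, centers in place of edges 33.9%, and any neighbour of smaller p 61.6%. The median over 1 kb was 2.80 CpG. A gene start lay within 1 kb of 34.9%, within 5 kb of 71.1% and inside 21.5%. Decreased H3K27me3 was near 12% within 5 kb, 2.19% with a shared base and 3.78% without chromosome 11. The cause of these moves was not tested beyond the change of sites that each rule makes.

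No paired analysis was possible because the lists hold no value per replicate. The lists hold no reads, so what depth limits is not known, and with 1 library per condition none was left out.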

Other observations

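Germ cell genes stood out by eye among the lone sites, so a list of 45 symbols of genes known for meiosis, piRNA biology or germ cell identity was written after the values had been seen, with these genes in it. No test was made on it. Of all Suz12 sites, 17 lay within 2 kb of a start of a listed gene. These were 8 of the 502 sites described here, 3 weak, non-depleted sites without Pcl3, 2 weak, depleted sites with Pcl3, 3 weak, depleted sites without Pcl3 and 1 stronger site. The 8 were 47.1% of the 17, while the 502 sites make up 5.66% of all Suz12 sites. Because the list was written after these genes were seen among the lone sites, that share and the place of the 8 are description only. All 8 stood alone and met the island criteria, with 6.20 to 12.8 CpG per 100 bp (median 8.50), and the Pcl3 center lay 25 to 250 bp away. The other listed sites also stood alone, except the intermediate one at Sycp2, and held 6.20 to 11.6 CpG per 100 bp. Standing alone and this CpG density were thus not particular to the 8. The 8 sites were at Ddx4, Tex12, Stk31, Tdrd1 and Tdrkh, the last pair encoding Tudor domain proteins of the piRNA pathway, Adad1, Tcfl5, which encodes a bHLH factor of spermatogenesis, and Zcwpw1, a histone reader of meiosis. Suz12 p-values ran from 7.07e-16 at Adad1 to 1.40e-08 at Stk31, and a gene start lay inside 7 of the 8. An intermediate site was at E2f6 (Suz12 p 7.02e-14, Pcl3 p 2.07e-39, 10.0 CpG per 100 bp, 113 bp downstream of the start), whose product is known to repress germ cell genes in somatic cells.

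A microRNA start lay within 2 kb of 6 of the sites described here. In all, 91 Suz12 sites had one, so the 6 were 6.59% of them. This is near the 5.66% that the sites described here make up of all Suz12 sites. The count thus does not set microRNA genes apart. The sites of Mir10b, Mir375, Mir1932, Mir26b and Mir34c were flanking, with 0.60, 0.800, 2.00, 3.8 and 4.40 CpG per 100 bp. The site of Mir346 stood alone with 6.00. Stronger sites with 3 weak neighbours were found near Neurog1, Onecut1 and Sfi1. The one near Sfi1 was 950 bp wide and close to the limit, with p 1.46e-20, and signal quality could not be examined there either. The weak sites beside Neurog1, a neuronal bHLH gene whose 4300 bp site had p written as 0, had p-values of 3.51e-13, 1.21e-10 and 1.74e-08. They held at most 1.60 CpG per 100 bp.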
